A study of Mus musculus with 8 samples.

Results

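Fc receptors bind the constant region of antibodies on the surface of myeloid cells, and they were examined here together with a group of genes that macrophages use to take up and destroy what they have bound. The group has 10 genes: the Fc gamma receptors Fcgr1, Fcgr2b, Fcgr3 and Fcgr4, the signalling adaptors Fcer1g and Tyrobp, and the macrophage genes Adgre1, Mpeg1, Lyz2 and Msr1. Members were picked by gene symbol, and each gene was read from 1 probe set, the one of highest mean signal on the 8 arrays among those annotated to that symbol alone. All 10 were found among the 17097 genes on the array, and all 10 passed the filter on dim genes that left 12250 genes for testing.

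The 8 arrays measured total RNA of mouse acute myeloid leukaemia (AML) cell lines. In 4 arrays, labelled Trib1 hi, the cells expressed Hoxa9 and Trib1, and in 4 arrays, labelled Trib1 null, they expressed Hoxa9 without Trib1. Hoxa9 belongs to the homeobox family of transcription factors and drives leukaemia of myeloid cells, and Trib1 is a pseudokinase that brings the transcription factor C/EBP alpha to the ubiquitin ligase COP1 for degradation. What both groups share is an origin in leukaemia of a Trib1 homozygous knockout mouse, growth in IMDM medium that held 10% bovine serum and the cytokine IL-3 at 5 ng/ml, no treatment, and labelling from 100 ng of RNA. The labels do not say how many independent lines or clones were used, nor whether each array had a culture of its own, so a p-value here covers only the scatter of these arrays, and part or all of that scatter may be technical. In bulk RNA, fewer cells of a type and less RNA per cell cannot be told apart.

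Activating Fc receptors have no signalling motif of their own and depend on a paired adaptor, the Fc receptor gamma chain encoded by Fcer1g, which carries an immunoreceptor tyrosine-based activation motif (ITAM) and is needed to bring the receptors to the cell surface. Tyrobp encodes DAP12, a related ITAM adaptor used by TREM and other myeloid receptors. Once antibody complexes cluster the receptors, Src-family kinases phosphorylate the ITAM, the kinase Syk binds it, and phagocytosis follows. Fcgr2b is the inhibitory receptor of the family and opposes this signal through the phosphatase SHIP1.

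Signals are the deposited MAS5 intensities, in arbitrary units on a linear scale. Differences are group means of log2(signal + 2.71), Trib1 hi minus Trib1 null, with 95% intervals, and adjusted p-values come from limma fitted to all 12250 genes. For folds, any signal below 500 was first raised to 500, and a fold is written as "at least" where this limit replaced a value. One array stood apart. The third array labelled Trib1 hi had a median over all probe sets of 68.3, against 4.09 to 4.94 on the other Trib1 hi arrays and 3.71 to 9.56 on the Trib1 null arrays. Its bright genes read lower, with a median of 2158 over the genes above 500 on every array, against 2307 to 2547 on the other 7 arrays. The 2 probe sets of Trib1 did not separate the groups as the labels name them. The brighter read 7.13, 7.13, 122 and 5.92 on the Trib1 hi arrays and 304, 223, 212 and 206 on the Trib1 null arrays. It thus read lower on every Trib1 hi array than on any Trib1 null array, with all readings below 500. The fitted difference was -3.72 (limma adjusted p = 0.0498). On the other probe set the groups overlapped. Where these probes lie relative to the deleted part of the gene and to the introduced Trib1 was not stated in the labels, so they do not check the labels, and every direction below rests on the labels. Controls added to the samples differed as well, though not strictly by their brightness. The brightest, cre and bioD, differed by 0.01 to 0.06 on the log2 scale, bioC by -0.34 and -0.33, and dap by -0.84 to -0.50, which is 1.41-fold to 1.79-fold lower in the Trib1 hi group. Of the controls with means below 500 in both groups, bioB differed by -2.72 to -2.54, phe by -3.08 to -0.35, thr by -3.26 to -1.57 and lys by -0.06 to 0.45. Control values are differences of mean log2 signal, without the added 2.71 or the limit of 500. They are thus not on the scale of the gene differences. A large difference that rests on readings below 500 also occurs in added controls.

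Across the 10 genes, 1 was higher in the Trib1 hi group (Adgre1), 3 were lower (Fcgr4, Mpeg1 and Lyz2) and 6 did not pass the threshold. Of all genes tested, 30.8% passed, 11.1% higher and 19.7% lower, so the number called among the 10 is close to that of the array as a whole. The median difference was -0.16 over the 10 genes and 0.04 over all genes tested. Signals of the groups did not overlap for 5 of the 10 genes, against 29.3% of all genes tested. Fcgr1 is among the 5, although it read below 500 on all arrays and passed the filter through its Trib1 hi readings. Of the 6 members above 500 on every array, Adgre1 and Lyz2 passed, where 51.7% of all genes that bright passed, 25.9% higher and 25.8% lower. What distinguished the members from each other was their level and direction: the common adaptors and 2 of the 4 Fc gamma receptors were bright in both groups, while the receptor gene Fcgr4 and the pore-forming gene Mpeg1 were above 500 on all 4 Trib1 null arrays and on at most 1 Trib1 hi array. After quantile normalization, which called 54.8% of all genes, 2 members were higher and 7 lower. After scaling on the bright genes, 1 was higher and 5 were lower, where 12% of all genes were higher and 18.8% lower.

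**Figure D1:**
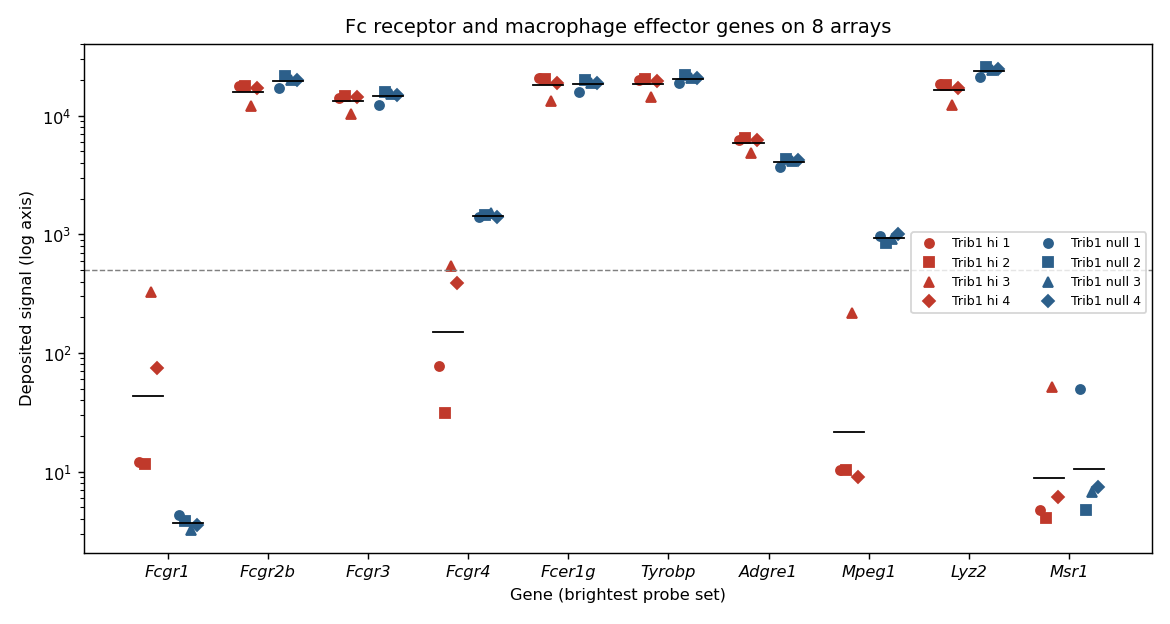
Deposited signal of each of the 10 genes on each array, on a log axis, with the 4 Trib1 hi arrays (red) left of the 4 Trib1 null arrays (blue), a marker shape for each array number, short lines at the group means of the log signals and a dashed line at 500. Fcgr4 and Mpeg1 lie above 500 on all 4 Trib1 null arrays, Fcgr1 and Msr1 lie below 500 on all 8, and the third Trib1 hi array has the highest Trib1 hi reading of each of these 4 dim genes and the lowest of each bright one.

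Fcgr4 encodes FcγRIV, an activating receptor for IgG2a and IgG2b in mice. It read 78.0, 31.1, 545 and 387 on the Trib1 hi arrays and 1409, 1448, 1502 and 1405 on the Trib1 null arrays. Every Trib1 hi reading lay below every Trib1 null reading, and 3 of the 4 were under 500. The fitted difference was -3.22 on the log2 scale (95% interval -4.18 to -2.26, limma adjusted p = 1.54e-06), and the signal was at least 2.82-fold lower in the Trib1 hi group. The dim added control thr differed by -3.26 at most, computed without the value added to gene signals before the log. That is a different scale, so the fitted value of Fcgr4 cannot be ranked against it. The bound of 2.82-fold compares with at most 1.79-fold, taken without the limit of 500, for the added controls with means above 500 in both groups. The part of a shift like that of the controls in this bound was not tested. Without the third Trib1 hi array the difference was -3.82 (adjusted p = 0.00205). Over all alternatives the adjusted p ran from 2.81e-31 to 0.0655, the highest where each gene kept its own variance, and there the call was lost.

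Fcgr3 encodes FcγRIII, the activating receptor for immune complexes on myeloid cells. Its signal was 14027, 14677, 10296 and 14400.3 on the Trib1 hi arrays, against 12218, 15955, 15337 and 15002 on the Trib1 null arrays. The groups overlapped, with the lowest reading on the third Trib1 hi array. The difference of -0.14 (95% interval -0.42 to 0.14) did not pass (limma adjusted p = 0.532), and its interval leaves out a fall as large as that of Fcgr4.

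Fcgr2b encodes FcγRIIB, the inhibitory member, and read 17837, 17710.3, 12032 and 17023 on the Trib1 hi arrays and 17086, 21577, 20164 and 20011.9 on the Trib1 null arrays. On this probe set too the groups overlapped. The difference was -0.30 (95% interval -0.61 to 0.01, limma adjusted p = 0.143). Scaling each array on the bright genes, an alternative chosen after seeing the data, gave nearly the same difference, -0.31, with a smaller spread and an adjusted p of 0.00115, within a range over all alternatives of 7.21e-10 to 0.638. Fcgr2b is the only member with several bright probe sets. In a fit of all probe sets, the other 3 were 1.25-fold, 1.28-fold and 1.27-fold lower. Their limma adjusted p-values were 0.0497, 0.0227 and 0.0288, and the one used here gave 0.0939. Those at 1.28-fold and 1.27-fold had every Trib1 hi reading below every Trib1 null reading. The array's names for 2 of the 4, the one used here among them, mark them as able to match transcripts of more than 1 gene.

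Fcgr1 encodes FcγRI, the high-affinity IgG receptor. It read 12.1, 11.6, 328 and 74.2 on the Trib1 hi arrays and 4.26, 3.82, 3.24 and 3.56 on the Trib1 null arrays. The groups did not overlap, but all 8 readings were below 500, where levels could not be compared between arrays, so no fold is given. The fitted difference of 2.91 did not pass (limma adjusted p = 0.133). Without the third Trib1 hi array it was 1.98 with an adjusted p of 0.0246, and over all alternatives the adjusted p ran from 2.86e-09 to 0.463. A second probe set was as dim, at 7.58, 6.22, 123 and 5.47 on the Trib1 hi arrays and 3.37 to 3.87 on the Trib1 null arrays. Fcgr1 passed the filter on dim genes through its Trib1 hi readings.

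Fcgr2b, Fcgr4 and Fcgr3 follow each other on chromosome 1 as immediate neighbours among the genes measured, and Fcer1g lies 8 measured genes from Fcgr4 on the side of Fcgr3. Within an array, the ratio of Fcgr4 to Fcgr3 signal, with Fcgr4 set to 500 where lower, was 0.0341 to 0.0530 on the Trib1 hi arrays and 0.0907 to 0.115 on the Trib1 null arrays. This ratio has meaning only between arrays, since the probes of the 2 genes bind with different strength. It was at least 2.56-fold lower in the Trib1 hi group, by -1.36 on the log2 scale (SD 0.30 over 4 Trib1 hi arrays and 0.15 over 4 Trib1 null arrays). The pair was chosen after its values were seen, so the ratio is a description without a test. Of the 10 measured genes on each side of Fcgr4, 18 were tested. Of these, 1 was higher (Uhmk1, 1.21-fold) and 4 were lower (Sh2d1b1, Olfml2b, Tomm40l and B4galt3). Of all genes tested, 11.1% were higher and 19.7% lower. Olfml2b read 5.87, 5.83, 88.3 and 4.22 on the Trib1 hi arrays and 648, 446, 559 and 590 on the Trib1 null arrays. Its fitted difference was -5.25, beside -3.22 for Fcgr4.

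RefSeq start regions of these 3 neighbouring genes are shown because Fcgr4 passed the threshold and was dim in Trib1 hi. The others lie directly beside it, were bright in both groups and did not pass on the probe sets used. Other probe sets of Fcgr2b were called lower, as given above. Each covers 250 bases before to 50 bases after the start of the gene in GRCm38.p6, 5′ to 3′ on the strand of the gene, and capitals mark the letters GAGGAA or their complement TTCCTC, the core bound by the myeloid transcription factor PU.1. The windows are chr1:171018676-171018975 on the plus strand for Fcgr4, chr1:170976022-170976321 on the minus strand for Fcgr2b and chr1:171059354-171059653 on the minus strand for Fcgr3.
Fcgr4: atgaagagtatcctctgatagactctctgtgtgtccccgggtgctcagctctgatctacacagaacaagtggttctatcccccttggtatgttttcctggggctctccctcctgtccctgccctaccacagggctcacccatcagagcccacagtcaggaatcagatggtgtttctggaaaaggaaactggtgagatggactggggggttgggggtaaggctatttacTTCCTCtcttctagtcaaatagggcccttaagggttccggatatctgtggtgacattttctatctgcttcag
Fcgr2b: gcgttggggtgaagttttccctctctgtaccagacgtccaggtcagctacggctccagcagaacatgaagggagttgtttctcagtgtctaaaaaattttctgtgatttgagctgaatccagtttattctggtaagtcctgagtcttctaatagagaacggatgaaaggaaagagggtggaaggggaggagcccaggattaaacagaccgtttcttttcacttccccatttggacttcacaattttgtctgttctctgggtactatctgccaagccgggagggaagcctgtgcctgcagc
Fcgr3: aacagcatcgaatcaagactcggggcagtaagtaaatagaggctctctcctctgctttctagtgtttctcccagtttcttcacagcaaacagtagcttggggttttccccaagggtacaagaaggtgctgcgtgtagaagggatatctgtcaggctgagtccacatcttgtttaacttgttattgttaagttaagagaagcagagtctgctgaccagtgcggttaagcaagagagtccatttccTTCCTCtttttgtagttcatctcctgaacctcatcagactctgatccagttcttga
RefSeq lists 2 starts for Fcgr3, and the window of the one farther upstream on its strand is shown. A match begins 22 bases before the start of Fcgr4 and 6 bases before the shown start of Fcgr3, or 15 before its other start, and the Fcgr2b window holds none. Of the 7 members in the RefSeq table (Fcgr1, Fcgr2b, Fcgr3, Fcgr4, Fcer1g, Mpeg1 and Lyz2), 3 hold the letters on either strand, these 2 and Fcgr1, against 28.3% of 32851 mouse windows of 300 bases. The letters are present in Fcgr4, which was lower, and in Fcgr3 and Fcgr1, which did not pass the test. They are absent from the window of Fcgr2b, of which other probe sets were called lower. A part of the letters in these differences was not tested.

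The adaptors were bright on every array. Fcer1g gave 20816, 20369.8, 13438 and 18906 on the Trib1 hi arrays, against 15963, 20097, 18725 and 19037 on the Trib1 null arrays. The ranges overlapped, the difference was -0.02 (95% interval -0.33 to 0.29, limma adjusted p = 0.949), and without the third Trib1 hi array it was 0.12 (adjusted p = 0.283). Tyrobp read 19908, 20499, 14357.5 and 19605 on the Trib1 hi arrays and 18765, 22002, 20838 and 20869 on the Trib1 null arrays. These too overlapped, with a difference of -0.16 (95% interval -0.47 to 0.15, limma adjusted p = 0.509). Scaling on the bright genes gave -0.17 with an adjusted p of 0.0365, within a range over alternatives of 2.96e-07 to 0.718. Both intervals include 0 and leave out a fall of the size seen for Fcgr4.

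Genes whose log2 signals ran closest to the adaptors over the 8 arrays, among the 4465 genes above 500 on every array, were Rps15 (Pearson r = 0.996), Emb (0.996) and Lcp2 (0.994) for Fcer1g, and Sptssa (0.998), Gpx1 (0.996) and Adam10 (0.995) for Tyrobp. Lcp2 encodes SLP-76, a scaffold in ITAM signalling, and Rps15 a ribosomal protein. All 8 arrays enter each coefficient, and the low bright readings of the third Trib1 hi array are shared by all of these genes.

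Adgre1 encodes F4/80, a surface receptor used as a mark of mouse macrophages. It read 6299.9, 6438, 4816 and 6302.5 on the Trib1 hi arrays and 3722, 4301, 4196 and 4225 on the Trib1 null arrays. Every Trib1 hi reading was above every Trib1 null reading. The gene was 1.44-fold higher in the Trib1 hi group, with a difference of 0.53 (95% interval 0.32 to 0.74, limma adjusted p = 9.05e-05), and without the third Trib1 hi array the difference was 0.63 (adjusted p = 4.16e-05). It was higher under all alternatives but one: with the medians of all arrays made equal, which moved the median of all genes to -0.80, the difference was -0.33 (adjusted p = 0.851, in a range over alternatives of 1.85e-08 to 0.851).

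Around Adgre1 on chromosome 17, the genes that passed the threshold went the other way. Of the 10 measured genes on each side, 15 were tested, 0 were higher and 8 were lower by limma (Tnfsf14, Trip10, Gpr108, Vav1, Fbxl17, Fer, Pja2 and Man2a1). Its next measured neighbour is Vav1, an exchange factor downstream of Syk, which read 350, 492, 687 and 618 on the Trib1 hi arrays and 1217, 1401, 1210 and 1338 on the Trib1 null arrays. The within-array ratio of Adgre1 to Vav1, with Vav1 set to 500 where lower, was 7.01 to 12.9 on the Trib1 hi arrays and 3.06 to 3.47 on the Trib1 null arrays. The ratio was at least 3.26-fold higher in the Trib1 hi group, by 1.70 on the log2 scale (SD 0.41 over 4 Trib1 hi arrays and 0.08 over 4 Trib1 null arrays). This pair too was chosen after its values were seen and is not tested. Over chromosome 17 as a whole, 18 of 636 tested genes were higher (2.83%) and 284 were lower (44.7%). Adgre1 was among the 18.

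**Figure D2:**
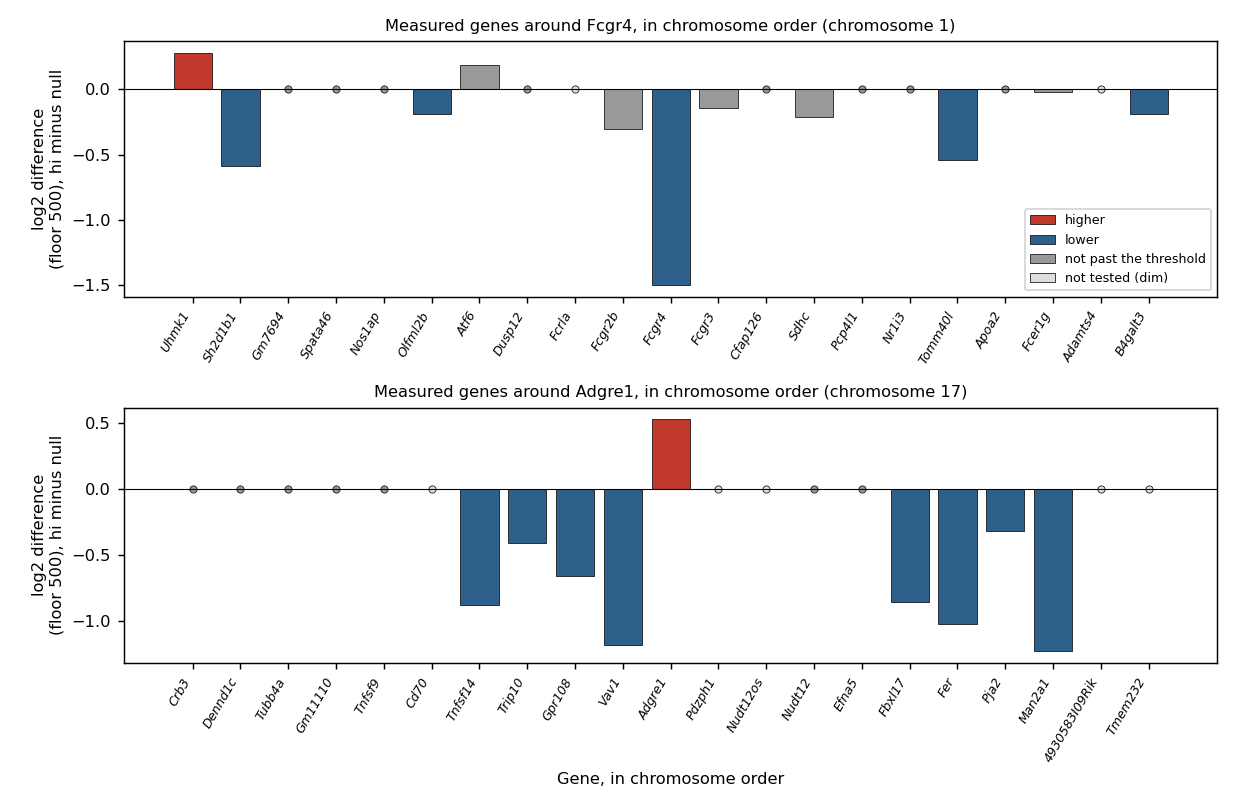
Log2 difference, Trib1 hi minus Trib1 null, of the 10 measured genes on each side of Fcgr4 and of Adgre1 by their order along the chromosome, with signals below 500 set to 500. Bars are coloured by the result of the limma test, and dots at 0 mark genes whose 2 group values were both at 500. Fcgr4 stands below its neighbours Fcgr2b at -0.30 and Fcgr3 at -0.14, and Adgre1 at 0.53 stands beside Vav1 at -1.18.

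Mpeg1 encodes perforin-2, a pore-forming protein that kills bacteria taken up by macrophages. Its signal was 10.2, 10.3, 219 and 9.02 on the Trib1 hi arrays, against 977, 851, 913 and 1000.9 on the Trib1 null arrays. All 4 Trib1 hi readings were under 500 and all 4 Trib1 null readings above it. The fitted difference was -5.19 (95% interval -6.88 to -3.49, limma adjusted p = 6.96e-06) and -6.22 without the third Trib1 hi array (adjusted p = 1.44e-06). With the limit of 500, the signal was at least 1.87-fold lower in the Trib1 hi group. Among the added controls with means above 500 in both groups, the largest difference was 1.79-fold, taken without that limit. The dim added controls differed by -3.26 at most, on a scale without the value added to gene signals before the log. The call held under every alternative run, with adjusted p-values up to 0.0173.

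Lyz2 encodes lysozyme M, secreted by macrophages and neutrophils to digest bacterial walls. It read 18432, 18226, 12297 and 17297 on the Trib1 hi arrays and 21257, 25727, 24523 and 24771 on the Trib1 null arrays. All Trib1 hi readings were below all Trib1 null readings. The difference was -0.55 (95% interval -0.87 to -0.24, limma adjusted p = 0.00578), or 1.47-fold lower in the Trib1 hi group, and -0.42 without the third Trib1 hi array (adjusted p = 0.00167). That size lies within the 1.41-fold to 1.79-fold differences of dap. The group means of dap, 610 to 2963, were far below the signal of Lyz2. The brighter controls cre and bioD, with group means of 7376 to 23431, differed by 0.01 to 0.06 on the log2 scale. The part of such a shift in the difference of Lyz2 was not tested. The call was lost with equal medians (adjusted p = 0.581), without a mean-variance trend (0.0592) and with each gene's own variance (0.0512), in a range over alternatives of 1.36e-12 to 0.581. The single probe set is one that its array name marks as able to match other transcripts, and Lyz1, a near-identical gene, had a probe set near the bottom of the scale on all arrays.

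Msr1 encodes scavenger receptor A, which takes up modified lipoproteins and bacteria. It read 4.74, 4.06, 51.6 and 6.06 on the Trib1 hi arrays and 49.6, 4.77, 6.69 and 7.47 on the Trib1 null arrays. The 2 readings near 50 fell in different groups, the difference was -0.16 (limma adjusted p = 0.948), and all 4 of its probe sets were below 500 on all arrays. Msr1 thus lay near the bottom of the scale in both groups.

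**Figure D3:**
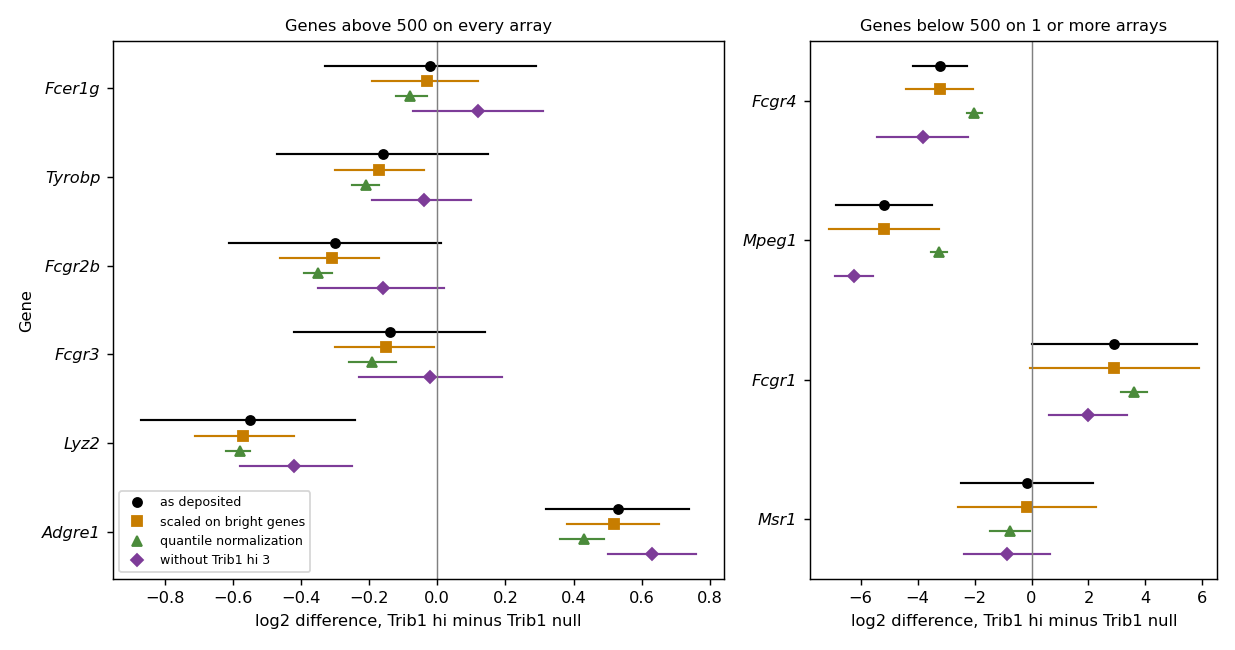
Log2 difference, Trib1 hi minus Trib1 null, of each gene with its 95% interval as deposited, after scaling on the bright genes, after quantile normalization and without the third Trib1 hi array, with genes above 500 on every array in the left panel and the others in the right one. Adgre1 stays above 0 and Lyz2, Fcgr4 and Mpeg1 below 0 in these 4 settings, while Fcer1g lies at -0.02 as deposited and at 0.12 without the third Trib1 hi array.

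Receptors that pair with Fcer1g or Tyrobp, and the enzymes and effectors that act after them, were read from 6 lists of 115 genes, of which 103 were on the array and 87 were tested. In all, 11 were higher and 34 lower in the Trib1 hi group, against the 11.1% and 19.7% of all genes tested given above, and without the third Trib1 hi array the counts were 15 and 42. Equal medians gave 1 higher and 21 lower. Of the 24 list genes named next, equal medians ended the call of 16 and turned the difference of 2, and 6 kept their call. Any of them given as 1.41-fold to 1.79-fold lower lies within the range of the added control dap. The part of such a shift in their differences was not tested.

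Of 15 tested receptors that pair with the adaptors, 2 were higher and 5 lower. Trem1, which amplifies inflammatory signals through DAP12, read 12.4, 10.9, 344 and 10.1 on the Trib1 hi arrays and 936, 850, 957 and 994 on the Trib1 null arrays, at least 1.87-fold lower (limma adjusted p = 1.15e-05, and 0.0551 with the mean of its probe sets, in a range over alternatives of 1.38e-10 to 0.0551). Clec5a, a DAP12-linked lectin, went the other way at 2982 ± 338 in Trib1 hi and 1873 ± 157 in Trib1 null (SD, n = 4 each), 1.59-fold higher, although equal medians turned its difference to -0.19. Pilrb1, another activating receptor of DAP12, was at least 2.18-fold lower, and Cd300lb was 1.53-fold lower. Fcer1a and Ms4a2, which form the IgE receptor with Fcer1g, were below 500 on all arrays.

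ITAM kinases and adaptors gave 2 higher and 6 lower of 16 tested. Of the 17 on the array, 7 were below 500 on all arrays. Syk was among these and was too dim to be tested. Vav1 was at least 2.26-fold lower. Btk, a kinase that activates phospholipase C gamma, averaged 4371 ± 640 in Trib1 hi and 8618 ± 426 in Trib1 null (SD, n = 4 each), 1.99-fold lower (limma adjusted p = 3.71e-09). Prkcd, a protein kinase C, was 1.79-fold lower and Cbl, a ubiquitin ligase that ends receptor signalling, 1.59-fold lower. With the mean of all its probe sets, the difference of Cbl was -0.32 in place of -0.67 and the call was lost (limma adjusted p = 0.649, in a range over alternatives of 2.74e-12 to 0.649). In the opposing branch, inhibitory receptors and phosphatases, 4 were higher and 6 lower of 16. Sirpa, the receptor for the CD47 signal that holds back phagocytosis, read 1035, 916, 1069 and 1029 on the Trib1 hi arrays and 3239, 3672, 3346 and 3339 on the Trib1 null arrays, 3.36-fold lower (limma adjusted p = 1.00e-15). The docking protein Dok2 was 2.15-fold lower and the phosphatase Ubash3b at least 1.60-fold lower. Pag1, which recruits the inhibitory kinase Csk, was at least 2.46-fold higher. With the mean of its probe sets its difference was 0.92 in place of 1.96 and the call was lost (limma adjusted p = 0.601, in a range over alternatives of 1.92e-20 to 0.601). Both the activating and the opposing lists thus held genes that moved in each direction.

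Scavenger and phagocytic receptors had 0 higher and 6 lower of 12 tested. Itgam and Itgb2, the chains of complement receptor 3, averaged 1660 ± 88.9 and 8942 ± 1429 in Trib1 hi, and 5122 ± 325 and 14508 ± 854 in Trib1 null (SD, n = 4 each), 3.08-fold and 1.64-fold lower (limma adjusted p = 1.04e-15 and 2.74e-05). Olr1, a receptor for oxidised lipoprotein, was at least 2.50-fold lower and the lysosomal protein Cd68 1.53-fold lower. Lysosomal and secreted effectors had 1 higher and 7 lower of 17. Gpnmb, a lysosomal membrane glycoprotein, read 22.5, 16.3, 411 and 139 on the Trib1 hi arrays and 1866, 1951, 1911 and 1845 on the Trib1 null arrays, at least 3.79-fold lower. Cybb, the catalytic chain of the phagocyte oxidase, was at least 2.32-fold lower, the protease gene Ctsb 2.31-fold lower and the lipase gene Lipa at least 2.09-fold lower.

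Transcription factors and growth factor receptors of macrophages had 2 higher and 4 lower of 11. Spi1, which encodes PU.1, read 331, 474, 837 and 624 on the Trib1 hi arrays and 1088, 1044, 873 and 875 on the Trib1 null arrays, with all Trib1 hi readings below the Trib1 null ones and a fold of at least 1.61 lower (limma adjusted p = 0.00121), within the range of dap. The call of Spi1 was lost without a mean-variance trend (adjusted p = 0.0896) and with its own variance (0.106), in a range over alternatives of 1.28e-05 to 0.243. Mitf and Tfec, related factors that act on lysosomal genes, were at least 2.34-fold and 2.22-fold lower. With the mean of its probe sets Mitf lost its call, at -0.24 in place of -1.25 (limma adjusted p = 0.853, in a range over alternatives of 1.17e-18 to 0.853). Cebpa, which encodes C/EBP alpha, averaged 7291 ± 1285 in Trib1 hi and 4002 ± 109 in Trib1 null (SD, n = 4 each), 1.80-fold higher (limma adjusted p = 1.62e-07), with a difference of -0.01 under equal medians.

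**Figure D4:**
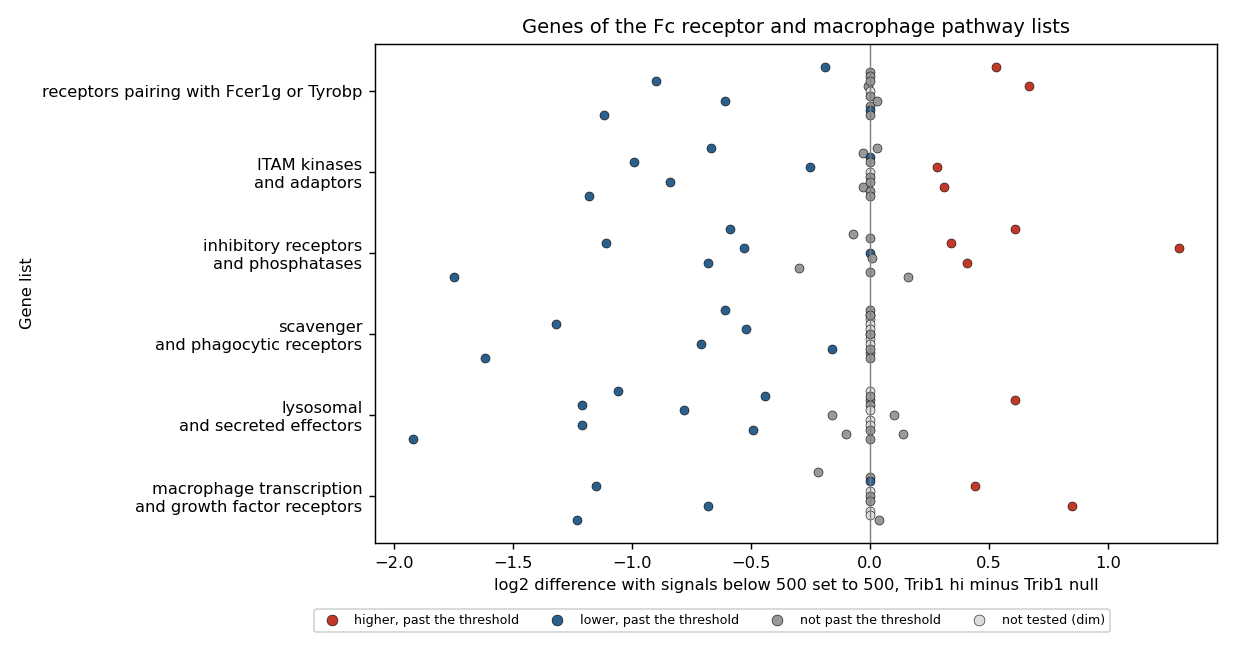
Log2 difference, Trib1 hi minus Trib1 null, of each gene of the 6 lists with signals below 500 set to 500, coloured by the result of the limma test. The lists hold 34 genes that were lower and 11 that were higher, and genes below 500 on all arrays lie at 0.

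Macrophage identity was checked with markers, because the 10 genes are named for that cell. Of 13 monocyte and macrophage markers on the array, 10 were below 500 on all arrays, Csf1r, Mrc1, Cd163, Mertk and the C1q genes among them. The summed signal of the 13 was 6526 to 7898 on the Trib1 hi arrays and 17926 to 20319 on the Trib1 null arrays, carried by Cd14, Ccr2 and Cd68, all lower in the Trib1 hi group. Adgre1, also a macrophage mark, was kept out of this list as one of the 10 genes. Neutrophil markers summed to 33869 to 47290 on the Trib1 hi arrays and 101490 to 124496 on the Trib1 null arrays, with 2 higher (Elane and Mpo) and 7 lower of 13 tested. Markers of mast cells and basophils summed to 23558 to 32054 on the Trib1 hi arrays and 7331 to 7678 on the Trib1 null arrays. Of 8 tested, 3 were higher (Cpa3, Kit and Gata2) and 1 lower, where 11.1% of all genes tested were higher and 19.7% lower. Kit was above 500 on the third Trib1 hi array alone (681), so it has no fold. The mast cell and basophil sum was carried by Cpa3 at 23607 in Trib1 hi and 1385 in Trib1 null. Mcpt8, a basophil protease gene, was 1.74-fold lower in Trib1 hi (limma adjusted p = 2.23e-08), a size within the range of dap. Fcer1a, Ms4a2 and the tryptases were below 500 on all arrays. For T and NK cells, 8 of 9 markers were below 500 on all arrays, and the sums of 2764 to 2919 on the Trib1 hi arrays and 34.6 to 255 on the Trib1 null arrays came from Nkg7. The part of these marker shifts in the differences of Fcgr4, Mpeg1, Lyz2 and Adgre1 was not tested.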

How the data were processed

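Gene expression was measured on 8 Affymetrix HT MG-430 PM arrays. The authors deposited intensities on a linear scale, 1 per array for 45141 probe sets, made with MAS5 per the submitters' processing notes. No version or settings of MAS5 were stated there. The platform annotation gave 1 symbol to 28898 probe sets and several to 551. The other 15692 are not named here.

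Groups and array numbers came from the titles. The probe set with the highest mean represented each gene. Values were tested as log2(intensity + 2.71), the 25th percentile of all values, and genes with a mean over 3.01, the 40th percentile, were kept. This pseudocount makes a change of a dim gene look smaller than it is. The groups were tested in R 4.3.3 with limma 3.58.1 (linear model, then empirical Bayes with trended variance), two-sided, with Benjamini-Hochberg adjustment at 0.05. Signals below 500 were set to 500 for folds, a limit chosen with the data known. Ratios and promoter searches used Python 3.11.15.

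The text names the 10 members, up to 4 genes of each list with the largest floored change among those past the threshold, and 3 genes most like each adaptor. Genes beside Fcgr4 and Adgre1, marker genes and added controls are named for their place or list. The members and lists were chosen with earlier results of these data known. Depth has no meaning for arrays, and 4 arrays per group limit the precision. Tested on simulated data with 12107 genes, the fit recovered 87.9% of genes changed by 1 on the log2 scale and 41% of those changed by 0.5. Only genes with a mean signal over 500 were changed, so these rates do not cover dim genes. The rates also leave out a shift of a whole array, as on the third Trib1 hi array. For the dim members Fcgr1 and Msr1, the standard errors of the log2 difference were 1.43 and 1.14. Alternatives changed the pseudocount, floor, scaling, filter, variance model, probe set rule, block and arrays used.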

Additional observations from a re-analysis of the deposited data

Results flagged for a closer look

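An array was picked out where, in a group of 4, its gap to the nearest other array took up more of the group's whole range than Dixon's 95% critical value. Chance picks out about 1 in 20 groups, and 13 of 68 were picked out among the members and named list genes. The third Trib1 hi array accounted for 11 of the 13. It read lowest of its group for Fcgr2b (12032), Fcgr3 (10296), Tyrobp (14357.5), Adgre1 (4816) and Cebpa (5374), all bright genes. It read highest of its group for Mpeg1 (219), Msr1 (51.6), Pilrb1 (249), Trem1 (344), Dok2 (1003) and Cybb (52.4). The other 2 were Msr1 on the first Trib1 null array (49.6, the highest of its group) and Itgam on the fourth Trib1 hi array (1527, the lowest of its group).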

How the results depend on the processing

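The numbers in the titles did not pair the arrays: deviations of same-numbered arrays correlated at -0.48, 0.46, -0.28 and 0.32, and 2 of 8 arrays correlated best with their own number. With the replicate block, 1284 genes were higher and 2346 lower, against 1363 and 2409 without it, and 1 member was higher and 3 lower, as without it. Higher genes numbered 3341 after quantile normalization, 175 with equal medians and 725 with the mean of probe sets, so higher genes made up 49.9% of calls under quantile normalization and 7.3% under equal medians. Lower genes numbered 1274 without a variance trend, 1379 without shared variance, 1317 with the mean of probe sets and 4017 with bright-gene scaling without Trib1 hi 3, a scaling chosen after seeing the data. Leaving out 1 array gave 1155 to 2080 higher and 1962 to 3774 lower, the highest of both without Trib1 hi 3. Members higher numbered 2 after quantile normalization and 2 with bright-gene scaling without Trib1 hi 3, and 1 to 2 on leaving out 1 array. Members lower numbered 7 after quantile normalization, 1 without shared variance and 5 with bright-gene scaling, with or without Trib1 hi 3, and 3 to 3 on leaving out 1 array. Quantile normalization called 54.8% of all genes. Of list genes, 19 were higher after quantile normalization, 1 with equal medians, 6 without a variance trend and 6 with the mean of probe sets (8 to 15 on leaving out 1 array). List genes lower numbered 21 with equal medians (28 to 42 on leaving out 1 array). Of the members' 17 probe sets, 1 was higher and 6 lower. Higher ones numbered 3 after quantile normalization, 2 with equal medians, 0 without a variance trend and 3 with bright-gene scaling without Trib1 hi 3 (1 to 3 on leaving out 1 array). Lower ones numbered 3 with a floor of 100, 10 after quantile normalization, 2 with equal medians, 3 without a filter, 1 without a variance trend and 1 without shared variance (3 to 7 on leaving out 1 array). Differences changed sign for Fcer1g (-0.09 to 0.12 on leaving out 1 array, above 0 without Trib1 hi 3, 0.05 with bright-gene scaling without it, 0.02 without Trib1 null 2), for Msr1 (-0.87 to 0.48 on leaving out 1 array, 0.31 with the mean of probe sets; 0.09, 0.13, 0.01 and 0.48 without Trib1 hi 1, hi 2, hi 4 and null 1), and under equal medians for Adgre1 (-0.33), Clec5a (-0.19) and Cebpa (-0.01). The cause was not tested.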
